A study of Mus musculus with 4 samples.

Results

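Cohesin and condensin are ring-shaped protein complexes built on SMC (structural maintenance of chromosomes) ATPases. Genes for 10 of their subunits were followed here in C2C12 cells, a mouse myoblast line that leaves the cell cycle and forms muscle fibres when serum is lowered. Members were the transcript clusters whose platform annotation gives a single gene symbol equal to a listed subunit. This left 9 of the 10 listed genes among 16658 clusters, each with 1 cluster. They are Smc2, Smc4, Ncapd2, Ncapd3, Ncapg2 and Ncaph of condensin and Smc1a, Smc3 and Rad21 of cohesin, while Ncapg was not analysed here. In the RefSeq annotation of assembly GRCm38.p6 the condensin genes lie on chromosomes 4 (Smc2), 3 (Smc4), 6 (Ncapd2), 9 (Ncapd3), 12 (Ncapg2) and 2 (Ncaph). The cohesin genes lie on chromosomes X (Smc1a), 19 (Smc3) and 15 (Rad21).

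Total RNA was hybridised to 4 Affymetrix arrays. The 2 differentiation arrays came from C2C12 cells moved at full confluency to DMEM with 2% horse serum and collected 24 h later. The 2 growth arrays came from C2C12 cells in DMEM with 10% fetal bovine serum, collected at 60 to 70% confluency. Serum kind, serum amount and cell density differ together with the condition and cannot be told apart from it, and all arrays come from this single line with no genetic change named in the labels. Arrays within a condition are described as biological replicates, with no word on separate cultures. The p-values therefore measure only the spread between these arrays, pooled in part over all clusters.

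Every cohesin and condensin ring holds a pair of SMC proteins joined by a kleisin subunit, with further subunits bound to the kleisin. Cohesin (Smc1a, Smc3, Rad21 and a Stag subunit) holds sister chromatids together from S phase to anaphase and also shapes chromatin loops in cells that are not dividing. Condensin compacts chromosomes for mitosis. Its complexes share Smc2 and Smc4. Condensin I adds Ncapd2, Ncapg and the kleisin Ncaph, and condensin II adds Ncapd3, Ncapg2 and the kleisin Ncaph2.

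The deposited value is a linear intensity per cluster, with no detection call, and the median over all clusters was 174.1 and 170.0 on the differentiation arrays and 167.8 and 177.2 on the growth arrays. Intensities of different genes come from different probes, so levels are compared only between arrays of the same gene. Each change is the mean log2(intensity + 16) in differentiation less that in growth, so the changes of dim genes come out too small. They are given with limma's standard error (SE), and a change was called at a limma p under 0.05 after Benjamini-Hochberg adjustment over all clusters. The number of arrays limits the precision of every value. Summed over 5 myoblast markers, intensity was 11460 and 11530 on the differentiation arrays and 7360.4 and 7559.8 on the growth arrays, and all 5 early myocyte markers were called higher. Over all clusters, 8.64% were called higher and 7.52% lower. Markers of other lineages were not called higher. None of 3 osteoblast and 4 endothelial markers was called, 2 of 5 adipocyte and 2 of 4 leukocyte markers were called lower, and summed leukocyte marker intensity was 288 and 330.4 on the differentiation arrays and 428 and 372 on the growth arrays.

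All 6 measured condensin genes fell after 24 h of differentiation, to between 12.7 and 31.6% of their growth intensity, and Rad21 and Smc3 of cohesin fell to 61.3 and 58.2%. In all, 8 of 9 members were called lower and none higher, beside 7.52% of all clusters called lower and 8.64% called higher. At least 2-fold falls were called for 6 members, which are those of condensin, beside 3.76% of all clusters, and at least 4-fold falls for 4 of them, beside 1.19%. The median log2 change was -2.32 over the condensin members and -0.76 over the cohesin members, beside -0.01 over all clusters. The arrays of both groups stood apart for all 9 members, with differentiation the lower group, beside 30.1% of all clusters in that order and 60.8% in either order. In whole-culture RNA, fewer dividing cells and less RNA per cell cannot be told apart. Proliferation markers moved with the members. All 5 measured (Mcm2, Mcm5, Ccna2, Ccne2 and Cdc6) were called lower, and their summed intensity was 997 and 1110.6 on the differentiation arrays, against 8062 and 8691 on the growth arrays. Their part in the members' changes was not tested.

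**Figure D1:**
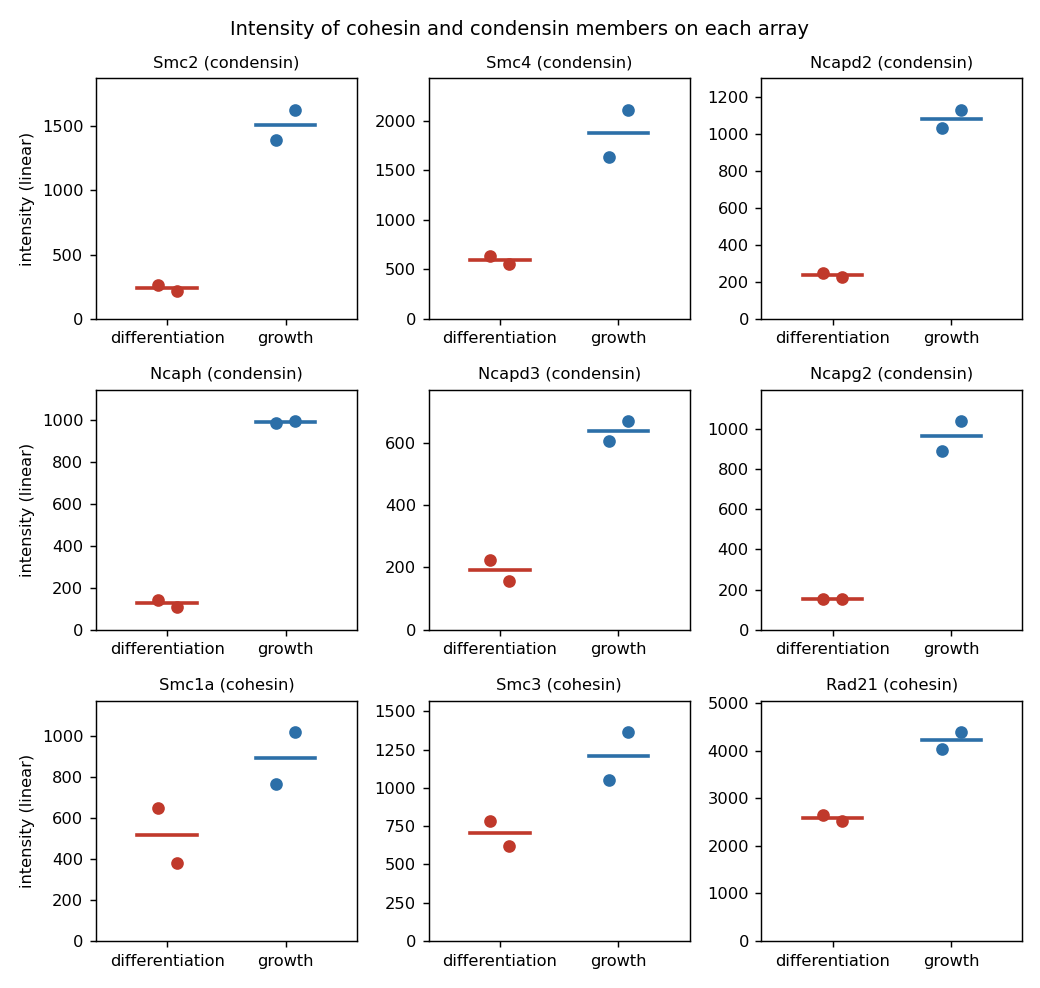
Linear intensity (y axis, from 0, scaled per gene) of each of the 9 measured members on the differentiation arrays (left) and the growth arrays (right); points are arrays and bars are group means of 2 arrays. In each panel both differentiation points lie below both growth points, with the widest gap relative to level for Ncaph and the narrowest for the cohesin genes.

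The SMC pair shared by both condensins fell unequally. Smc2 had intensities of 263 and 216 on the differentiation arrays, against 1397 and 1629 on the growth arrays. That is a mean of 239.6 ± 33.0 against 1513 ± 164 (SD, n = 2 each), a 6.31-fold lower level (log2 change -2.58 ± 0.20 SE; limma adjusted p = 0.000195). Smc4 had 638 and 548 on the differentiation arrays, against 1636 and 2114 on the growth arrays. Its change was -1.63 ± 0.21 (limma adjusted p = 0.00194), and its mean intensity in differentiation stayed at 31.6% of that in growth. The log2 difference Smc2 minus Smc4 within an array was -1.23 and -1.28 on the differentiation arrays, against -0.23 and -0.37 on the growth arrays, so Smc2 fell further than Smc4, with a difference between their changes of -0.96. Differences between genes within an array were not tested here, and are given as a description. The smallest p that an exact permutation test allows with 2 arrays against 2 is 0.333.

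Of the subunits particular to condensin I, the kleisin gene Ncaph fell most among all members. It had intensities of 141 and 109.5 on the differentiation arrays, against 984 and 995 on the growth arrays, which is 12.7% of the growth mean (log2 change -2.84 ± 0.19 SE; limma adjusted p = 0.000165). Ncapd2, a HEAT-repeat subunit that binds the kleisin, had 249 and 228 on the differentiation arrays, against 1033 and 1132 on the growth arrays. It fell by 2.11 ± 0.18 on the log2 scale (limma adjusted p = 0.000320). The growth arrays of Ncaph lay 11.4 units apart, while those of Smc4 lay 478 apart.

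The genes particular to condensin II changed by different amounts. Ncapg2, its HEAT-repeat subunit of the G type, had intensities of 153.5 and 153.4 on the differentiation arrays, against 892 and 1040.0 on the growth arrays (log2 change -2.53 ± 0.18 SE; limma adjusted p = 0.000180). Ncapd3, the D-type counterpart of Ncapd2, had 225 and 156 on the differentiation arrays, against 607 and 670.1 on the growth arrays. Its change was -1.68 ± 0.22 (limma adjusted p = 0.00209). The kleisin gene Ncaph2, which is not among the members but completes the complex, had 764 and 768 on the differentiation arrays, against 1175 and 1262 on the growth arrays. It was 62.9% of its growth mean in differentiation (-0.66 ± 0.18; limma adjusted p = 0.0421), close in size to the cohesin genes.

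The condensin kleisins moved by different amounts. The log2 difference Ncaph minus Ncaph2 within an array was -2.31 and -2.64 on the differentiation arrays, against -0.25 and -0.34 on the growth arrays, so the condensin I kleisin fell further, with a difference between the changes of -2.18. The call of Ncaph2 was lost without any 1 of the 4 arrays, with an offset of 1, with the replicate number as a block and against a minimum change of 1.5-fold. The 6 condensin members kept their calls in each of the 15 alternative settings run, with changes of -3.00 to -2.48 for Ncaph and -1.81 to -1.44 for Smc4, the members at the ends of the range.

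**Figure D2:**
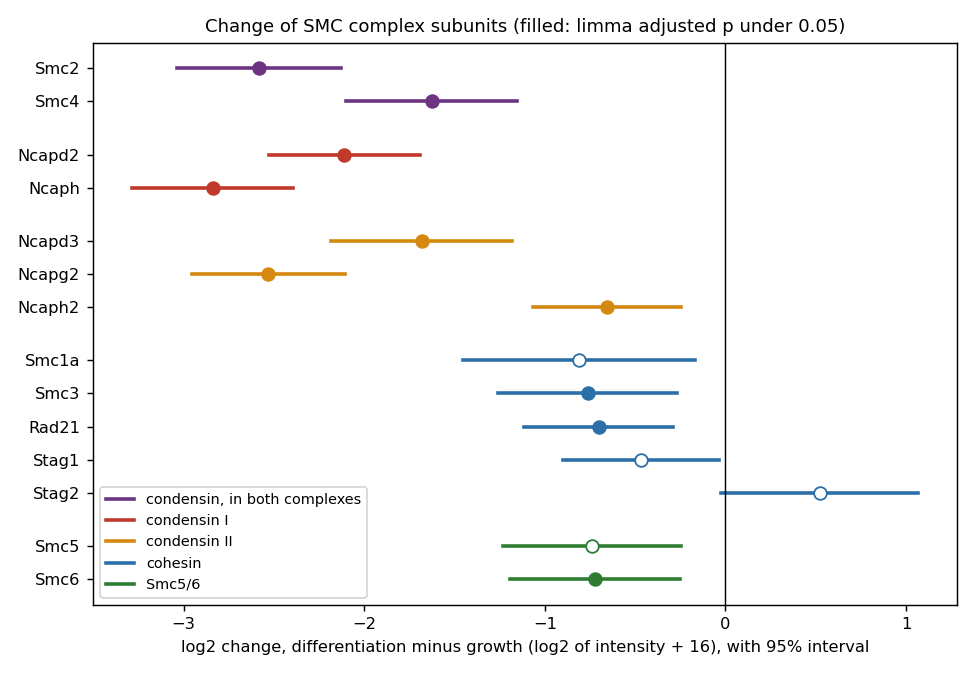
Log2 change of differentiation over growth (x axis, log2 of intensity + 16) for subunits of condensin, cohesin and the Smc5/6 complex, with the 95% interval of the limma fit; filled points have an adjusted p under 0.05. All condensin members lie between -2.84 and -1.63, while Ncaph2 and the core cohesin genes lie between -0.81 and -0.66.

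The cohesin core fell by less. Rad21, the kleisin that separase cuts at anaphase, had intensities of 2652 and 2521 on the differentiation arrays, against 4043 and 4393 on the growth arrays (log2 change -0.70 ± 0.18 SE; limma adjusted p = 0.0351). Smc3, whose head domain is acetylated when cohesion is set up, had 783 and 623 on the differentiation arrays, against 1049.8 and 1365 on the growth arrays (-0.76 ± 0.21; limma adjusted p = 0.0484). Smc1a, its SMC partner, had 651 and 379.8 on the differentiation arrays, against 767 and 1019.6 on the growth arrays. The groups stood apart for Smc1a too, but its differentiation arrays differed by 271 units, and its change of -0.81 did not pass (95% interval -1.45 to -0.17; limma adjusted p = 0.0851).

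The cohesin calls rested on all 4 arrays. Without any 1 of the 4 arrays, with an offset of 1, or against a minimum change of 1.5-fold, 0 of the 3 passed. Smc3 also lost its call with the replicate block (limma adjusted p = 0.0562) and with a robust prior (limma adjusted p = 0.0507). In the analysis as reported, all 3 were lower at an unadjusted p under 0.05, beside 15.2% of all clusters lower at that level. Smc1a passed with an offset of 64, with either filter on dim clusters and when eBayes was given a trend with intensity. The change of Smc1a was -1.19 without differentiation replicate 1 and -0.43 without differentiation replicate 2.

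Set against each other within arrays, each condensin member fell further than each cohesin member. In all 18 pairs the differentiation and growth arrays stood apart, with differences between changes of -2.14 (Ncaph minus Rad21) to -0.82 (Smc4 minus Smc1a). These pairs reuse the same 9 genes, and their differences between changes restate the changes given above. The share of other gene pairs that stand apart was not computed. The mean log2 value of the 6 condensin members less that of the 3 cohesin members was -2.11 and -1.96 on the differentiation arrays, against -0.51 and -0.63 on the growth arrays. Smc3 and Smc1a, partners in the same ring, had changes of -0.76 and -0.81. Their within-array difference was 0.26 and 0.69 on the differentiation arrays, against 0.44 and 0.42 on the growth arrays, and the groups overlapped.

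The other cohesin subunits showed no called change. The Stag proteins bind Rad21 as alternatives to each other in somatic cells. Stag2 had intensities of 767 and 667 on the differentiation arrays, against 399 and 611 on the growth arrays (log2 change 0.52, 95% interval -0.02 to 1.07; limma adjusted p = 0.168). Stag1 had 1082 and 951 on the differentiation arrays, against 1321 and 1505 on the growth arrays (-0.47, 95% interval -0.90 to -0.04; limma adjusted p = 0.126). The within-array difference Stag2 minus Stag1 was -0.49 and -0.50 on the differentiation arrays, against -1.69 and -1.28 on the growth arrays, a shift of 0.99 toward Stag2 in which the groups stood apart. The size of the Stag2 change depended on the growth arrays. It was 0.22 without growth replicate 1 and 0.82 without growth replicate 2. The meiotic subunit genes Rec8 (-0.55 ± 0.23 SE; limma adjusted p = 0.144), Smc1b (0.17 ± 0.21) and Stag3 (-0.19 ± 0.26) had mean intensities under the array medians in both groups and did not pass. None of these 5 genes was called, while 2 were lower at an unadjusted p under 0.05 and none higher, beside 15.2% and 17.8% of all clusters.

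**Figure D3:**
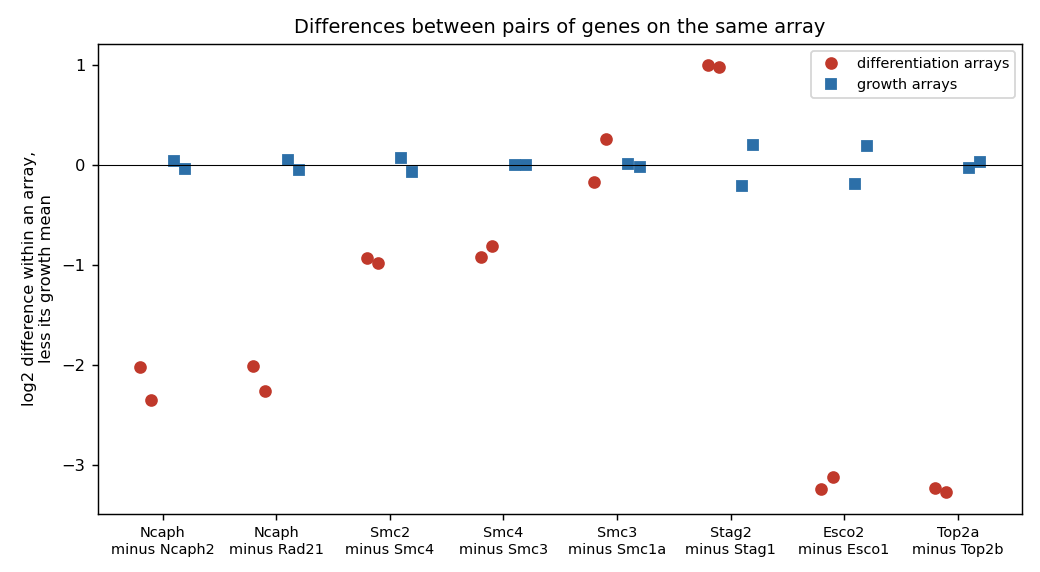
Log2 difference between pairs of genes on the same array, less the mean of that difference over the growth arrays (y axis), for the differentiation arrays (circles) and the growth arrays (squares). The differentiation circles lie about 2 below 0 for Ncaph against Ncaph2 or Rad21, below -3 for Esco2 against Esco1 and Top2a against Top2b, near 1 for Stag2 against Stag1, and around 0 for Smc3 against Smc1a.

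Of 15 genes that load, release or acetylate cohesin, 5 were called lower and none higher, beside 7.52 and 8.64% of all clusters. The median log2 change over the 15 was -0.45. The 5 that fell are known for setting up cohesion at the replication fork. Esco2, the acetyltransferase that acts on Smc3 in S phase, had intensities of 64.4 and 76.0 on the differentiation arrays, against 514.5 and 704 on the growth arrays (log2 change -2.85 ± 0.21 SE; limma adjusted p = 0.000187). Cdca5 (sororin), which protects acetylated cohesin from release, had 52.6 and 97.4 on the differentiation arrays, against 576 and 613 on the growth arrays (-2.79 ± 0.25; limma adjusted p = 0.000390). Chtf18 (-2.49 ± 0.19) and Dscc1 (-2.45 ± 0.27), of the alternative clamp loader, and the DNA helicase gene Ddx11 (-1.76 ± 0.18) also fell. Chtf8, of the same loader, was not called (-0.24 ± 0.18). The 5 genes that fell passed in each alternative setting in which they were tested.

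The remaining 10 cohesin regulators did not pass, and 5 of them had values above 0. Nipbl and Mau2 form the cohesin loader. Nipbl had intensities of 966 and 770.5 on the differentiation arrays, against 462 and 643 on the growth arrays (log2 change 0.65, 95% interval 0.13 to 1.17; limma adjusted p = 0.0893). Mau2 had 1004 and 1230.4 on the differentiation arrays, against 714 and 787 on the growth arrays (0.56, 95% interval 0.11 to 1.00; limma adjusted p = 0.0869). Hdac8, which removes the acetyl group from Smc3, had 144 and 213 on the differentiation arrays, against 69.8 and 107.6 on the growth arrays. Its change of 0.90 ± 0.26 missed the threshold by little (limma adjusted p = 0.05002) and passed in 6 of 14 alternative settings.

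Esco1, an acetyltransferase whose action is not limited to S phase, had intensities of 139 and 147 on the differentiation arrays, against 107 and 113 on the growth arrays (log2 change 0.33 ± 0.18 SE; limma adjusted p = 0.231). The within-array difference Esco2 minus Esco1 was -0.95 and -0.83 on the differentiation arrays, against 2.10 and 2.48 on the growth arrays. The release factor gene Wapl changed by 0.44 ± 0.21 without a call (limma adjusted p = 0.199). The Pds5 genes, whose proteins help both release and protection, had changes of -0.56 ± 0.19 (Pds5a; limma adjusted p = 0.0834) and -0.45 ± 0.27 (Pds5b; limma adjusted p = 0.289). The acetyltransferase gene Naa50 (-0.65 ± 0.19; limma adjusted p = 0.0547), Ctcf, which halts loop-forming cohesin on DNA (-0.44 ± 0.19; limma adjusted p = 0.148), and Chtf8 (-0.24 ± 0.18; limma adjusted p = 0.392) did not pass either.

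All 7 measured genes that protect or cut cohesin in mitosis were called lower, beside 7.52% of all clusters. Their median log2 change was -2.64. Sgo1 (shugoshin), which guards centromeric cohesin, had intensities of 82.9 and 108.9 on the differentiation arrays, against 867 and 959 on the growth arrays (log2 change -3.06 ± 0.20 SE; limma adjusted p = 0.000165). Espl1, the separase gene whose product cuts Rad21, had 123.5 and 131 on the differentiation arrays, against 845 and 905 on the growth arrays (-2.64 ± 0.18). The separase inhibitor gene Pttg1 (securin) changed by -2.04 ± 0.18, the second shugoshin gene Sgo2a by -2.71 ± 0.20 and the kinase gene Bub1, which recruits shugoshin, by -2.76 ± 0.18. Haspin, a histone H3 kinase at centromeres, fell by 1.48 ± 0.19 on the log2 scale. Plk1, whose product drives cohesin off chromosome arms, had 2 clusters, and they fell unequally. The brighter, used in the count, changed by -2.62 ± 0.19, and the dim one by -0.80 ± 0.21 (limma adjusted p = 0.0394). The dim cluster lost its call without any 1 of the 4 arrays.

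Among 10 measured partners of condensin and of the mitotic chromosome axis, 8 were called lower and none higher, beside 7.52 and 8.64% of all clusters. The median log2 change over the 10 was -2.24. Ncaph2, given above, was 1 of the 8. The largest change was that of the chromosomal passenger kinase gene Aurkb (-3.10 ± 0.19 SE), and the chromosome surface protein gene Mki67 changed by -2.28 ± 0.24. Top2a, the topoisomerase of the chromosome axis, had intensities of 274 and 292 on the differentiation arrays, against 1829 and 2273 on the growth arrays (log2 change -2.78 ± 0.19 SE; limma adjusted p = 0.000165). Its paralog Top2b, which is not tied to division, had 1237 and 1357 on the differentiation arrays, against 850.3 and 1017 on the growth arrays, and its change of 0.47 ± 0.19 did not pass (limma adjusted p = 0.129). The chromokinesin genes Kif4 and Kif22 changed by -2.70 ± 0.20 and -2.59 ± 0.18, and Cdk1, whose kinase phosphorylates condensin, by -2.20 ± 0.19. Mcph1, known as an inhibitor of condensin II, had 391 and 295 on the differentiation arrays, against 755 and 752 on the growth arrays (-1.11 ± 0.20; limma adjusted p = 0.00938). Its call was lost without differentiation replicate 2, with an offset of 1 and against a minimum change of 1.5-fold. Akap8, an anchor protein known to bind condensin, did not pass (-0.35 ± 0.18; limma adjusted p = 0.207).

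The Smc5/6 complex, the remaining SMC ring, serves DNA repair and stalled forks. Of 8 measured genes of the complex and its kin, 2 were called lower and none higher, beside 7.52 and 8.64% of all clusters. The median log2 change over the 8 was -0.34, and 3 genes without a call had values above 0. Smc6 had intensities of 817 and 665 on the differentiation arrays, against 1108.5 and 1363 on the growth arrays (log2 change -0.72 ± 0.20 SE; limma adjusted p = 0.0484). Smc5 had 448 and 404 on the differentiation arrays, against 611 and 847 on the growth arrays (-0.74 ± 0.21; limma adjusted p = 0.0524), just outside the threshold. Smchd1, an SMC hinge protein of silent chromatin, had 384 and 309 on the differentiation arrays, against 651 and 699.7 on the growth arrays (-0.94 ± 0.19; limma adjusted p = 0.0159). Smc6 and Smchd1 lost their calls without any 1 of the 4 arrays, with an offset of 1 or against a minimum change of 1.5-fold, and Smc6 also with a robust prior or the replicate block. Smc5 passed in 8 of 15 alternative settings, quantile normalization and median centring among them. Smc1a, Smc3, Smc5 and Smc6 had changes between -0.81 and -0.72, against -2.58 and -1.63 for Smc2 and Smc4 of condensin.

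Over the 45 related genes measured of 49 listed, 22 were called lower and none higher, beside 7.52 and 8.64% of all clusters. At an unadjusted p under 0.05, 28 were lower, beside 15.2% of all clusters, and 5 were higher (Nipbl, Mau2, Hdac8, Top2b and Slf2), beside 17.8% of all clusters. Those 5 had changes of 0.47 to 0.90. Rad21l, Ccnb1, Nsmce4a and Slf1 were not analysed here.

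**Figure D4:**
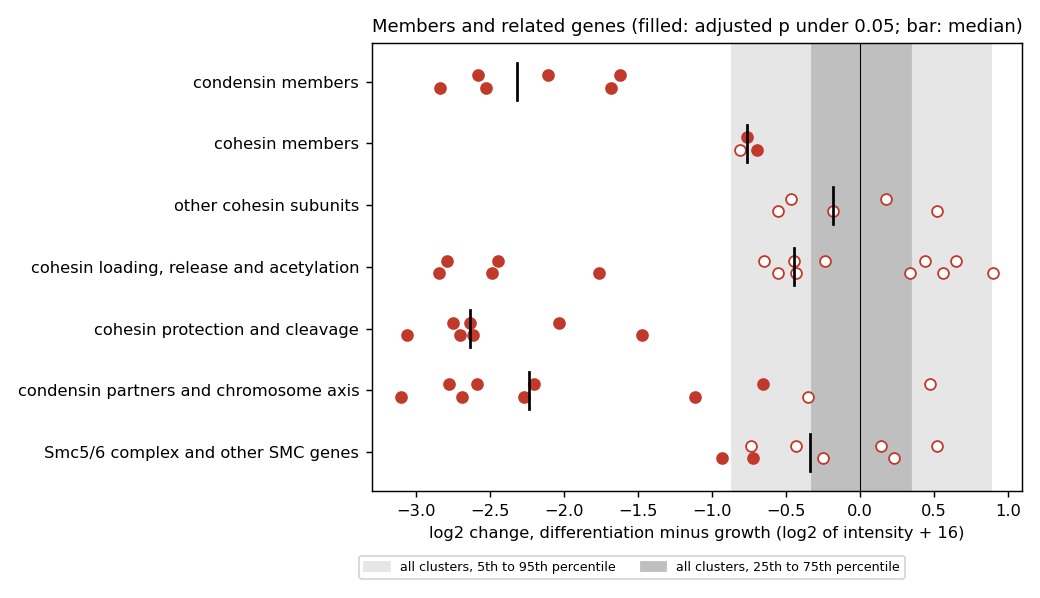
Log2 change of differentiation over growth (x axis, log2 of intensity + 16) for each member and related gene, by list; filled points have a limma adjusted p under 0.05, bars are list medians and shading gives the percentiles of all clusters. The genes of cohesin protection and cleavage lie at or below -1.48, and the cohesin regulators form a set of 5 at or below -1.76 and a set of 10 between -0.65 and 0.90.

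The windows below show a selection of the promoter motif matches of members. As background, the CHR (cell cycle genes homology region) is bound by complexes that repress late cell cycle genes in resting cells, and E2F sites are known from genes of the G1/S transition. RefSeq promoter windows (GRCm38.p6, 250 bases before to 50 after an annotated start) were searched on both strands for the CHR as TTTGAA, for E2F sites as TTTGGCGC, TTTGCCGC, TTTCGCGC or TTTCCCGC, and for the CCAAT box as CCAAT. Of the 9 measured members, 7 had a window, 5 of condensin and 2 of cohesin, and Ncapd3 had 2. Smc4 and Rad21 had no entry. Each line holds 30 bases, 5′ to 3′ on the gene's strand, with the match in capitals.
Ncapg2 CHR: tacgcgggtgtgTTTGAAtctggtccgagc
Ncapg2 E2F: ctggtccgagcGCGGGAAActatgggtctg
Ncapd2 CHR: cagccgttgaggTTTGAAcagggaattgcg
Ncapd2 E2F: ccatctcgttgTTTGGCGCgtatcctgccc
Smc2 CHR: ctcgcgccgaaaTTCAAAggaacagttccg
Smc1a E2F: cggcttgcactgcgctaTTTCCCGCgcggg

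The Ncapg2 windows lie at chr12:116405406-116405435 and chr12:116405425-116405454 (plus strand), with the first base of the CHR at -18 and of the E2F match at 0 from the start. This E2F match (TTTCCCGC) is on the opposite strand, and a further Ncapg2 E2F match lay at -249, also on the opposite strand. The Ncapd2 windows lie at chr6:125191692-125191721 and chr6:125191576-125191605 (minus strand), with matches from -123 and -8. The Smc2 window lies at chr4:52439235-52439264 (plus strand) with its match from 26, on the opposite strand, and a further CHR match lay at -145. The Smc1a window lies at chrX:152016448-152016477 (plus strand) with its match from 37. The CHR letters were in windows of 4 of 5 condensin genes (Smc2, Ncapd2, Ncapg2 and, at its second start, Ncapd3) and 0 of 2 cohesin genes. The Ncapd3 match, not printed above, began at -249 on the opposite strand, near the far edge of its window. The window of the first Ncapd3 start held no CHR match. Of all 32851 promoter windows, 17.9% held the CHR letters. A gene was counted if any of its windows matched, and Ncapd3 had 2, while the shares are per window. By window, 4 of the 8 member windows held the CHR letters. An E2F form was in 2 of 5 condensin genes and 1 of 2 cohesin genes, beside 2.26% of windows. The CCAAT letters were in 2 of 5 and 1 of 2, beside 37.4%, and no matches overlapped each other in these windows. Ncaph, the member that fell most, and Smc3 held none of these letters. A match is a description of the sequence only.

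**Figure D5:**
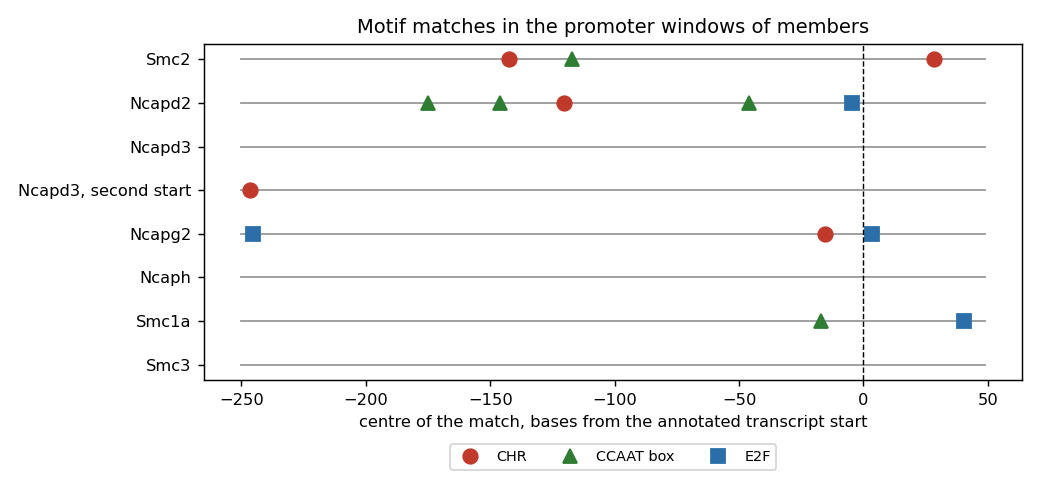
Position of CHR (circles), E2F (squares) and CCAAT (triangles) matches in the promoter windows of members (x axis, bases from the annotated start; each grey line is 1 window). Smc2, Ncapd2 and Ncapg2 have a CHR match in the window of their only start, while Ncaph and Smc3 have no match.

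Of 6 genes that start within 1000 bases of a member on the opposite strand, 3 had a cluster with a single symbol, and each of these 3 had a smaller change than the member beside it. They were chosen for their position. Mrpl51, a mitochondrial ribosomal protein gene beside Ncapd2, had intensities of 226 and 196 on the differentiation arrays, against 367 and 312 on the growth arrays (log2 change -0.65 ± 0.19 SE; limma adjusted p = 0.0557). Vps26b, a retromer gene beside Ncapd3, had 870.0 and 813 on the differentiation arrays, against 764 and 884 on the growth arrays, which overlapped (0.03 ± 0.18; limma adjusted p = 0.916). Ribc1, beside Smc1a, changed by -0.38 ± 0.22 without a call (limma adjusted p = 0.259). The difference between each member and its neighbour was not tested.

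The genes whose values over the 4 arrays lay closest to the mean profile of each complex were ranked by Euclidean distance between centred log2 values among 14797 other genes. Nearest to the condensin members were Ereg, an EGF family ligand gene (distance 0.05; log2 change -2.26), the kinase gene Pask (0.05; -2.23), Efcab11 (0.08; -2.16) and the replication checkpoint gene Topbp1 (0.08; -2.30). Nearest to the cohesin members were Taf9b (0.05; -0.73), the centromere protein gene Cenpc1 (0.07; -0.79), Phf6 (0.07; -0.82) and Fgl2 (0.07; -0.71). Cenpc1 and Phf6 were called lower (limma adjusted p = 0.0428 and 0.0392), while Taf9b and Fgl2 were not (limma adjusted p = 0.0558 and 0.0690). Fgl2 was dim, with mean intensities of 26.7 in differentiation and 53.4 in growth. Over 4 arrays, genes with a change of the same size lie close to each other by construction.

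Among themselves the members also shared the order of arrays within a condition. All 9 were lower on differentiation replicate 2 than on differentiation replicate 1, as were 52.4% of all clusters, and all 9 were higher on growth replicate 2 than on growth replicate 1, as were 59.8% of all clusters. The difference was smallest for Ncapg2 in differentiation (0.11 units) and for Ncaph in growth (11.4 units). Of the 45 related genes, 25 had the members' order in differentiation and 39 had it in growth. Of the 5 proliferation markers, 0 had it in differentiation and 5 in growth.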

How the data were processed

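C2C12 RNA was measured on 2 differentiation and 2 growth arrays. The deposited values are linear intensity values per transcript cluster, made by the authors with PLIER (build mm9), per the submitters' processing notes. For background correction, scaling and the version of PLIER nothing is stated in these sources. The platform annotation gave 14938 clusters a single symbol, 989 several and 731 none. Where a gene had several clusters, the brightest was counted.

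Log2(intensity + 16) was fitted without further normalization with limma 3.58.1 in R 4.3.3 (lmFit, eBayes, two-sided, no covariate), Benjamini-Hochberg adjusted over 16658 clusters at a threshold of 0.05. Arrays have no depth, and their number limits precision. Same-numbered arrays did not deviate together (correlation -0.04), so no pairing was used. Gene lists are described by counts and medians. Members and lists were chosen with earlier results of these data known. Named were all members, up to 4 genes per list and direction by adjusted p, genes of counts of 5 or fewer, other subunits and direct cohesin regulators, and the 4 nearest profiles per complex. Genes named beyond this, such as Smc5 and Cdk1, were chosen after their values were seen. The neighbouring genes were also added then, and were picked by position. Alternatives were 15: normalization, offset, filters on dim clusters, variance prior, replicate block, single arrays left out, a minimum change and leaving out clusters listed at 0. Promoter sequences are RefSeq's, and their build differs from that of the arrays.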

Additional observations from a re-analysis of the deposited data

How the results depend on the processing

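The 6 condensin members were called lower in each of the 15 alternatives, and the count of all members stayed at 6 to 9. With 2 arrays per group, calls of changes under 2-fold can depend on a single array, and dim values cannot be told from background. In fits with 3 arrays, the lone array of a group was taken to vary as the other group does. Of 3 cohesin members, 2 in the analysis as reported, 0 passed with an offset of 1 and against a minimum change of 1.5-fold, 1 with a robust prior, 1 with the replicate block (Smc3 lost in both), and 0 with any 1 array left out. With an array left out, clusters called in either direction were 751 to 2028 and those called lower 446 to 839. Clusters in either direction were 1150 with an offset of 1, 4362 with an intensity trend and 559 against the minimum change, and those called lower 622, 1947 and 355. Related genes called higher, 0 as reported, were 4 with an offset of 64, 3 and 4 with the milder and stricter filter on dim clusters, 6 with an intensity trend, 1 with the replicate block, 1 without clusters listed at 0 and 0 to 1 with an array left out. The list of other cohesin subunits had 1 lower with an offset of 64, 1 with the stricter filter and 1 with an intensity trend, against 0. That of cohesin loading had 8 with an intensity trend, against 5. The Smc5/6 list, with 2, had 0 with an offset of 1, 1 with a robust prior, 1 with the replicate block, 0 against the minimum change and 0 to 1 with an array left out. The authors state no pairing of arrays by replicate number. With the replicate block 7 members and 20 related genes were called lower, and 2564 clusters in either direction. Among 66 single genes, 856 of 974 values kept their direction and side of the threshold, 58 lost a call, 53 gained one and 7 turned sign, none of them called. These were Stag3, Smc1b, Eid3 and Vps26b, whose changes with an array left out ranged from -0.51 to 0.14, -0.0029 to 0.34, -0.38 to 0.66 and -0.070 to 0.14. The causes of these shifts were not tested.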
